A study of Homo sapiens with 6 samples.

Results

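The genes described here carry out the cellular response to amino acid shortage and to misfolded protein in the endoplasmic reticulum. They were taken as a list of 38 gene symbols, each represented by the array probe set (transcript cluster) annotated to that symbol alone and, where a gene had several, by the one with the highest mean signal over the 6 arrays. Of the 38 genes 37 had such a probe set, among 18417 gene symbols on the array: all 21 genes of the ATF4 branch and 16 of the 17 of the reticulum branch. PDIA3, whose probe sets also carry another gene's symbol, has no value here. RNA came from neural stem cells (NSCs) at passage 14, derived from SA-01, a single human embryonic stem cell line. Treatment began 5 h after plating and lasted 24 h, with X5050 at 100 µM or, for controls, its solvent DMSO at a final 0.1%. There were 3 independent cultures and 3 arrays per treatment, and the shared replicate number is read here as the culture. The series title names X5050 as an inhibitor of REST, the repressor of neuronal genes, and the comparison asks which transcripts differ between X5050 and DMSO.

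Cells under stress phosphorylate the translation factor eIF2, which lowers general protein synthesis while raising translation of the transcription factor ATF4. ATF4 then switches on genes of amino acid synthesis and uptake, together with the regulators DDIT3 (CHOP), TRIB3 and PPP1R15A (GADD34), the last of which restores eIF2 to its active form. The sensor PERK links this branch to the endoplasmic reticulum, and a pair of other sensors there, IRE1 and ATF6, act through XBP1 and through cleaved ATF6 to raise chaperones, disulfide isomerases and the machinery that degrades misfolded proteins. ATF4 is controlled largely by translation, so its mRNA on an array is not a measure of its protein.

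All values are log2 signal, changes are X5050 minus DMSO, and the number of arrays limits their precision. Array medians lay between 5.68 and 5.75, and any pair of arrays had a Pearson correlation of 0.984 to 0.993 over 33297 probe sets. The array of X5050 in culture 2 had the highest lower quartile (4.21, against 4.05 to 4.12 on the other arrays) and the lowest upper quartile (7.38, against 7.39 to 7.43). With DMSO 7 of 10 neural stem cell markers, among them SOX2 (10.88), PAX6 (10.80) and FABP7 (12.07), lay above the upper quartile of every array, while SOX1 (6.43), HES1 (6.65) and HES5 (7.09) did not. So did 6 of 9 neuron markers, with STMN2 the highest (12.22) and SYP the lowest (5.76), and 5 of 12 mesenchymal and matrix markers, with ACTA2 the highest (10.46) and PDGFRB the lowest (6.27). Of the 7 astrocyte and oligodendrocyte markers 1, S100B (7.59), was above every upper quartile, and 4 were below every array median, the lowest being AQP4 (4.63). None of the 4 measured neural crest markers was above the upper quartiles (5.10 to 6.61), and of the 3 pluripotent cell markers DPPA4 (8.20) was above them and ZFP42 (3.35) below every median.

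With X5050 every measured gene of the list stayed between -0.40 and 0.39 log2 units of its DMSO level on average, and no member passed the test. The ATF4 branch stood slightly above 0, with 16 of 21 genes higher and a median change of 0.061, while the reticulum branch stood slightly below, with 11 of 16 genes lower and a median of -0.081. Of all 19460 probe sets tested 52.7% were above 0 and 47.3% below, with a median of 0.0092. The branches also differed in signal level, with a median percentile among these probe sets of 86.35 for reticulum genes and 64.1 for ATF4 branch genes. The part of signal level in the contrast of the branches was not tested. The asparagine synthetase ASNS was 1.28-fold higher and the cysteine-forming enzyme CTH 1.31-fold higher, while the calcium-binding chaperone CALR was 1.32-fold lower and the chaperone HYOU1 1.303-fold lower (n = 3 per treatment). In bulk RNA such as this, fewer cells of a type and less RNA per cell cannot be told apart.

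In the limma fit over all 19460 probe sets with treatment as the only term, 0 of the 37 members had an adjusted p under 0.05, as did 0 of all probe sets (0%), and the smallest adjusted p among members was 0.406. With the replicate number as a block, which compares X5050 with DMSO within each culture, 0 members passed as well, against 0.498% of all probe sets (0.19% higher and 0.308% lower), and the smallest adjusted p was 0.0958, that of CALR. At an unadjusted p under 0.05 the limma fit without the block held 4 members (10.8%, against 9.37% of all probe sets), with ASNS, CTH and DDIT3 higher (4.5% of all were higher) and CALR lower (4.88%). The fit with the block held 8 (21.6%, against 14.5%), adding CEBPB and EDEM1 on the higher side (7.06%) and HYOU1 and SDF2L1 on the lower (7.48%). The X5050 values lay apart from the DMSO values for 4 members (10.8%, against 14.9%), 3 of them above (7.51% of all probe sets were above) and 1 below (7.41%). All 3 cultures were higher with X5050 for 7 members (18.9%, against 18% of all probe sets) and lower for another 7 (18.9%, against 17.5%). Counted over both branches, these shares were close to those of all probe sets, except for the unadjusted calls with the block.

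**Figure D1:**
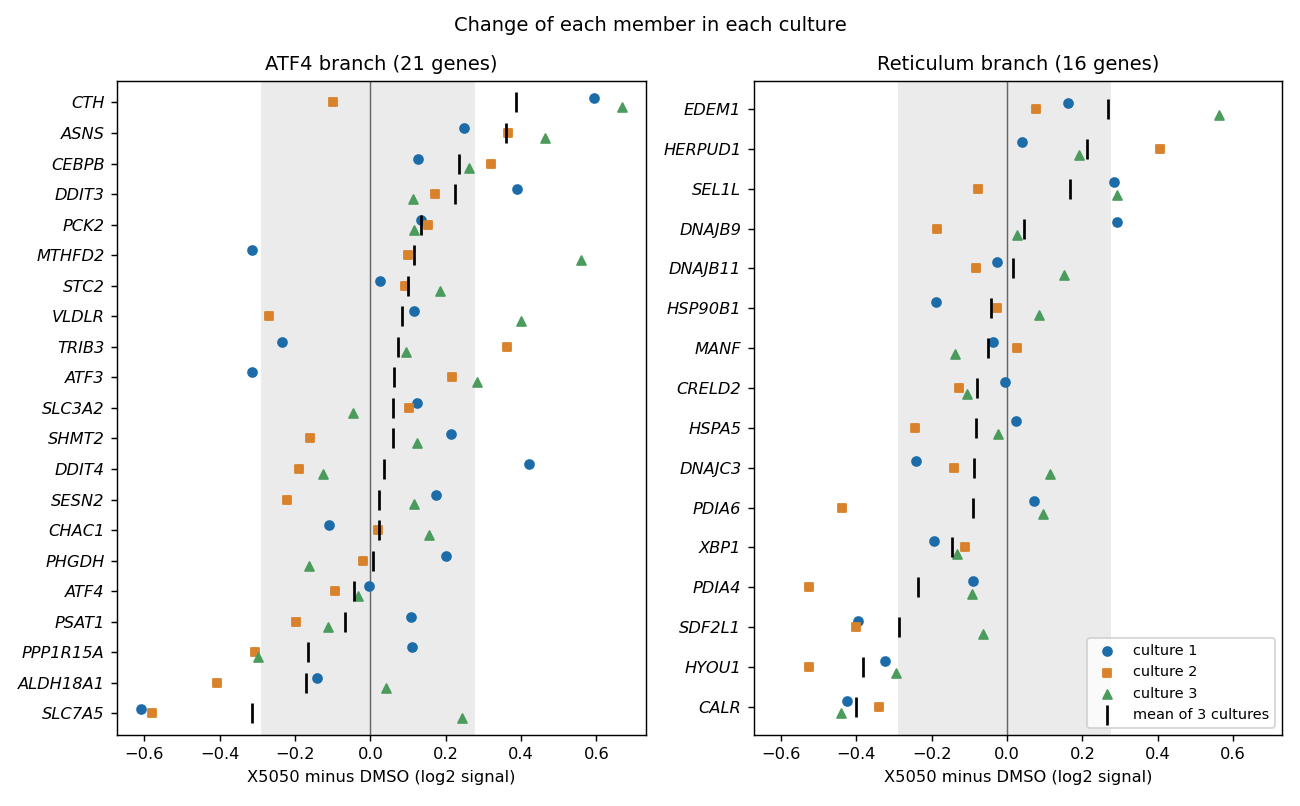
Change of each of the 37 measured genes in each culture, as X5050 minus DMSO in log2 signal, with a vertical tick at the mean of the 3 cultures and grey marking the 5th to 95th percentile of the mean change over all probe sets (-0.29 to 0.27). CTH and ASNS are at the top of the ATF4 panel, CALR and HYOU1 at the bottom of the reticulum panel, and the cultures of many genes lie on both sides of 0.

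By culture the median change of the ATF4 branch was 0.12, -0.019 and 0.12 in cultures 1, 2 and 3, and that of the reticulum branch was -0.032, -0.13 and 0.0009. The ATF4 median was thus above the reticulum median in every culture, by 0.15, 0.12 and 0.12, and by 0.14 on the means of all cultures. This order was not tested, since the lists were drawn up with results of these data known. Culture 2 was the lowest for both branches. After another quantile normalization of the arrays the ATF4 median was 0.052, the reticulum median -0.025 and the gap between branches 0.077. Without the array of DMSO in culture 1 the reticulum median was 0.0076 and the gap 0.085. Leaving out the X5050 array of culture 1 gave a reticulum median of -0.19 and an ATF4 median of -0.0056. Without the X5050 array of culture 2, which had the highest lower quartile, the medians were 0.099 and -0.026 and the gap 0.13.

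The transcription factors at the head of the ATF4 branch differed little between treatments. ATF4 itself measured 10.53, 10.46 and 10.47 with DMSO and 10.52, 10.36 and 10.44 with X5050 in cultures 1, 2 and 3, a change of -0.044 (95% interval -0.23 to 0.15). These groups overlap, and after another quantile normalization the change was 0.0024. A second probe set of ATF4, at a mean of 6.25 with DMSO, was lower in all 3 cultures (by 0.085, 0.33 and 0.38), with all X5050 values below all DMSO values and a paired adjusted p of 0.255 in limma.

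DDIT3, the stress factor CHOP that promotes cell death when stress persists, measured 5.98, 6.19 and 6.24 with DMSO and 6.37, 6.37 and 6.35 with X5050. The X5050 arrays were all above the DMSO arrays and nearly identical to each other. The change (0.23, SE 0.094, adjusted p = 0.518 in limma, and 0.326 with the block) ran from 0.39 in culture 1, where DMSO was lowest, to 0.11 in culture 3. Without the DMSO array of culture 1 it was 0.15. CEBPB, a leucine zipper factor that pairs with ATF4, measured 6.42, 6.12 and 6.16 with DMSO and 6.54, 6.44 and 6.42 with X5050. Its groups did not overlap either (lowest X5050 value 6.419, highest DMSO value 6.416), and its change was 0.24 (SE 0.10, adjusted p = 0.544 in limma, and 0.275 with the block).

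ATF3, a repressor induced by ATF4, had its highest value with DMSO in culture 1 (6.13, against 5.33 and 5.47) and stood between 5.55 and 5.82 with X5050. Its change was -0.31 in culture 1 and 0.22 and 0.28 in the others. TRIB3, a pseudokinase that inhibits ATF4 and CHOP, had the same split, with -0.24, 0.36 and 0.095. The phosphatase subunit PPP1R15A went the other way, with 0.11 in culture 1 and -0.31 and -0.30 in cultures 2 and 3, and the mTOR inhibitor DDIT4 likewise, with 0.42, -0.19 and -0.13. CHAC1, which degrades glutathione, and SESN2, a sensor of leucine that restrains mTORC1, had mean changes of 0.022 and 0.023. Across these 9 regulators 7 were above 0, with a median of 0.036, and only DDIT3 and CEBPB were higher in all 3 cultures.

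Among the amino acid and one-carbon enzymes the 2 largest changes were those of ASNS and CTH. ASNS, which makes asparagine from aspartate, measured 8.39, 8.09 and 8.01 with DMSO and 8.64, 8.46 and 8.48 with X5050. Every X5050 array was above every DMSO array, and the change was 0.36 (SE 0.12, 95% interval 0.084 to 0.63, adjusted p = 0.441 in limma, and 0.127 with the block). CTH, which makes cysteine from cystathionine, measured 6.03, 6.35 and 5.90 with DMSO and 6.63, 6.26 and 6.57 with X5050. It was higher in cultures 1 and 3 (by 0.59 and 0.67) and slightly lower in culture 2 (-0.098), so the groups overlap. The change was 0.39 (SE 0.15, adjusted p = 0.492 in limma, and 0.274 with the block). Without culture 2 the paired change was 0.63, and without culture 3 it was 0.25.

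PCK2, the mitochondrial PEP carboxykinase, was higher by a nearly equal amount in each culture (0.14, 0.15 and 0.12), yet its groups overlap because the cultures differed by more than that. Its mean of 0.14 was 0.088 without the DMSO array of culture 1 and 0.064 without the X5050 array of culture 2. Enzymes of serine synthesis and use lay close to 0, on both sides of it. PHGDH and PSAT1, which carry out the opening steps of the pathway, differed by 0.0058 (-0.013 after centring the arrays on their medians) and -0.067, and SHMT2, which splits serine in mitochondria, by 0.060. MTHFD2, the next mitochondrial folate enzyme, measured 8.88, 8.003 and 7.56 with DMSO and 8.56, 8.10 and 8.12 with X5050. It spread widely with DMSO and less so with X5050, with changes of -0.32, 0.10 and 0.56 by culture, and its second probe set gave -0.15, 0.11 and 0.64. ALDH18A1, which starts proline synthesis, was lower in cultures 1 and 2 (by 0.14 and 0.41) and 0.041 higher in culture 3. Of the 8 enzymes 6 were above 0 on average, with a median of 0.088.

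SLC7A5 and SLC3A2 form the heterodimer that imports leucine and other large neutral amino acids. SLC7A5, the transporter chain, measured 7.94, 7.27 and 6.70 with DMSO and 7.33, 6.69 and 6.94 with X5050. It was lower in cultures 1 and 2 (by 0.61 and 0.58) and 0.24 higher in culture 3, with a mean change of -0.32 (SE 0.30, adjusted p = 0.832 in limma, and 0.432 with the block). Without the DMSO array of culture 1 that mean was 0.0035. SLC3A2, the glycoprotein chain, differed by 0.12, 0.10 and -0.047. The secreted hormone STC2 was higher in all cultures by 0.025, 0.091 and 0.18. The lipoprotein receptor VLDLR ranged from 8.94 to 10.04 with DMSO and from 9.31 to 10.16 with X5050, with changes of 0.12, -0.27 and 0.40, all smaller than the range of its DMSO arrays.

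**Figure D2:**
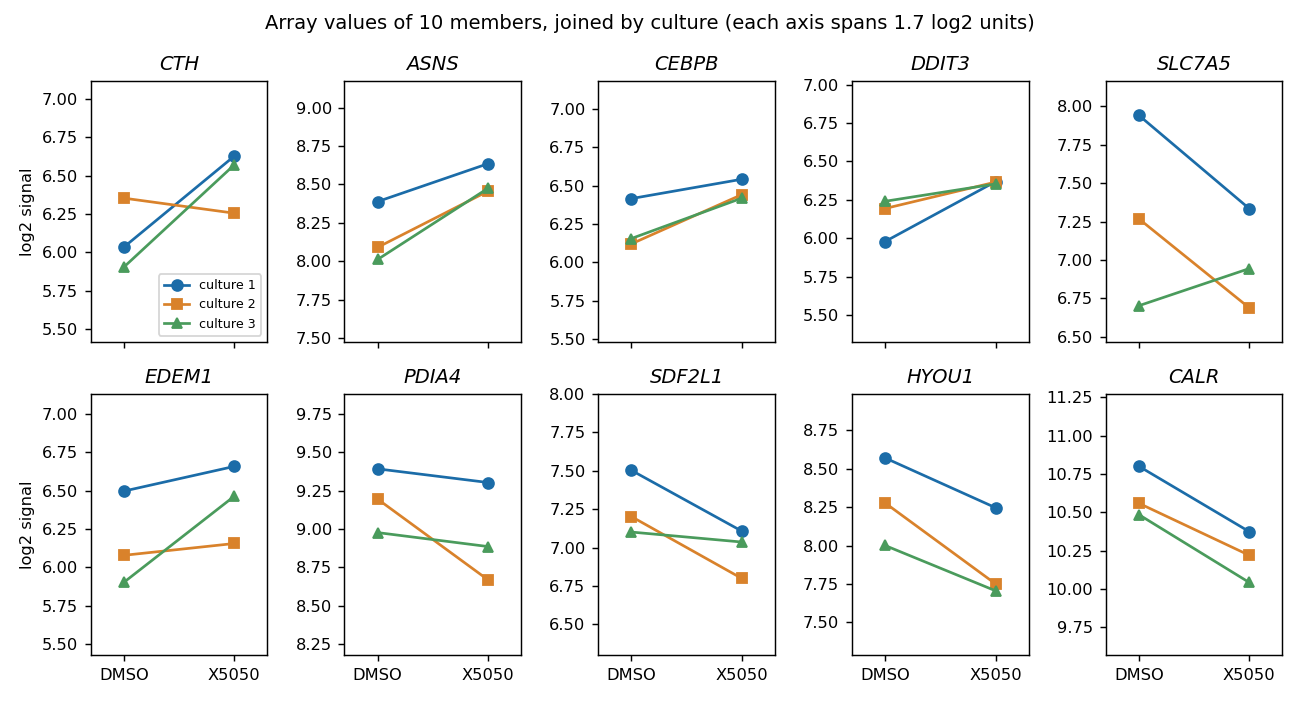
Log2 signal of the 5 members of each branch with the largest mean change, with a line joining the DMSO and X5050 arrays of each culture. ASNS, CEBPB, DDIT3 and EDEM1 slope up and PDIA4, SDF2L1, HYOU1 and CALR slope down in all 3 cultures, while 1 culture of CTH and 1 of SLC7A5 run against the others.

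The principal chaperones of the reticulum did not share a direction. HSPA5 (BiP), the HSP70 of the reticulum that also holds the stress sensors inactive, measured 11.15, 10.98 and 10.77 with DMSO and 11.17, 10.74 and 10.75 with X5050. Only the culture 2 pair differed by more than 0.1 (-0.25), and the mean change was -0.082 (95% interval -0.43 to 0.26). HSP90B1 (GRP94), the HSP90 of the reticulum, differed by -0.19, -0.026 and 0.085. The BiP co-chaperones DNAJB9, DNAJB11 and DNAJC3 had mean changes of 0.044, 0.014 (-0.0046 for DNAJB11 after centring) and -0.089, each with cultures on both sides of 0.

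HYOU1 (GRP170), which helps BiP exchange its nucleotide, was the exception among the larger chaperones. It measured 8.57, 8.28 and 8.001 with DMSO and 8.25, 7.75 and 7.71 with X5050. The groups overlap because culture 1 was high under both treatments, but X5050 was the lower array of each pair, by 0.32, 0.53 and 0.29. The change was -0.38 (SE 0.19, adjusted p = 0.593 in limma), and with the replicate block the SE was 0.093 and the adjusted p 0.117. Without the DMSO array of culture 1 the change was -0.24. SDF2L1, a partner of DNAJB11, was lower by 0.40, 0.40 and 0.065, with DMSO arrays at 7.50, 7.20 and 7.10 and X5050 arrays at 7.11, 6.80 and 7.04. Its groups overlap narrowly, the highest X5050 value being 7.107 and the lowest DMSO value 7.101. Without the DMSO array of culture 1 its change was -0.17, against -0.29 with all arrays.

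Calreticulin, encoded by CALR, is the lectin that retains unfolded glycoproteins and buffers calcium, and it had the largest change of the reticulum branch. It measured 10.80, 10.56 and 10.49 with DMSO and 10.37, 10.22 and 10.04 with X5050. All X5050 arrays lay below all DMSO arrays, and the cultures gave similar changes of -0.43, -0.34 and -0.44. The mean change was -0.40 (SE 0.12, 95% interval -0.69 to -0.12, adjusted p = 0.406 in limma, and 0.0958 with the block). With 1 array left out it ranged from -0.48 to -0.31. PDIA4, a disulfide isomerase, measured 9.39, 9.19 and 8.98 with DMSO and 9.30, 8.67 and 8.89 with X5050, and most of its mean change of -0.24 came from culture 2 (-0.53, against -0.090 and -0.092). Its change was -0.094 without the X5050 array of culture 2, -0.13 without the DMSO array of culture 1 and -0.41 without the X5050 array of culture 1. PDIA6, an isomerase that also dampens the sensors, was lower in culture 2 alone (-0.44, against 0.072 and 0.094).

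The secreted stress factors MANF and CRELD2, which leave the cell when reticulum calcium or folding is disturbed, differed by -0.051 and -0.080. XBP1, whose spliced mRNA encodes the transcription factor of the IRE1 branch, was lower by 0.19, 0.11 and 0.13 (mean -0.15, SE 0.13, adjusted p = 0.826 in limma, and 0.513 with the block). That mean was -0.030 without DMSO and -0.24 without X5050 of culture 1, and -0.23 without DMSO and -0.068 without X5050 of culture 3. The array gives 1 value for XBP1 and does not separate the spliced from the unspliced form here.

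The 3 members that serve the degradation of misfolded proteins stood above 0 on average, none passing the test, while other genes of this process stood on both sides of 0. EDEM1, which trims mannose from doomed glycoproteins, measured 6.50, 6.08 and 5.90 with DMSO and 6.66, 6.16 and 6.46 with X5050. It was higher by 0.16, 0.077 and 0.56 and overlapped between groups (mean 0.27, SE 0.18, adjusted p = 0.744 in limma, and 0.328 with the block). Leaving out culture 3 lowered its paired change to 0.12, and with 1 array left out the mean ranged from 0.14 (DMSO, culture 3) to 0.44 (DMSO, culture 1). HERPUD1, an organiser of the degradation complex, measured 8.21, 7.68 and 7.77 with DMSO and 8.25, 8.08 and 7.96 with X5050, higher by 0.039, 0.41 and 0.19. Its mean of 0.21 was 0.37 without the DMSO array of culture 1, 0.11 without that of culture 2 and 0.14 without the X5050 array of culture 1. SEL1L, the adaptor of the ubiquitin ligase in that complex, was higher in cultures 1 and 3 (0.28 and 0.29) and lower in culture 2 (-0.078), and its mean of 0.17 was 0.040 without the DMSO array of culture 3 and 0.041 without the X5050 array of culture 1. The median of the 3 was 0.21, against -0.082 for the 7 chaperones and cofactors and -0.24 for CALR, PDIA4 and PDIA6.

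**Figure D3:**
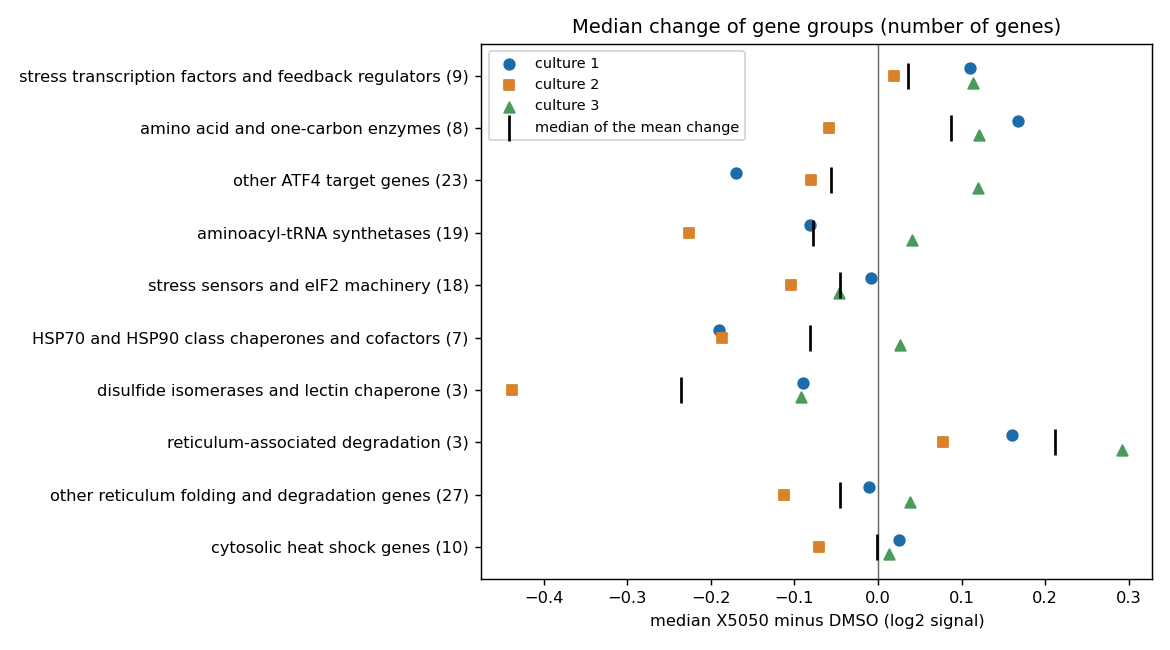
Median change of gene groups by role and of other lists of the pathway, as X5050 minus DMSO in log2 signal, for each culture and, as a vertical tick, for the mean over cultures. The group of 3 degradation members and that of stress transcription factors and feedback regulators lie above 0 in each culture. The isomerase and lectin group and that of stress sensors and eIF2 machinery lie below 0 in each. All groups shown except the degradation group and the isomerase and lectin group lie within 0.1 of 0 on the mean of cultures.

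The chaperone genes are known to be controlled through stress elements near their start sites, and the letters of these elements in the promoters show which members share them. RefSeq windows (GRCh38.p14, from 250 bases before a transcript start to 50 after it) were found for 36 of the 38 members, not for PDIA3 and SHMT2. The elements searched, on both strands, were ERSE (CCAAT, then any 9 bases, then CCACG), the endoplasmic reticulum stress element, ERSE-II (ATTGG, then any 1 base, then CCACG), its compact form, and CARE (TGATGNAA), the core that C/EBP and ATF factors share. These letter patterns do not overlap each other in the members' windows. The stretches printed here, in lower case with the matched element in capitals and read 5′ to 3′ on the strand of the gene, are from members that were higher or lower in all 3 cultures, with CHAC1 and HSPA5 as well-known targets that were not.
ASNS (chr7:97872444-97872501, minus strand, CARE): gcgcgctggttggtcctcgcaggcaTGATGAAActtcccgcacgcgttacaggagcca
CHAC1 (chr15:40953237-40953294, plus strand, CARE): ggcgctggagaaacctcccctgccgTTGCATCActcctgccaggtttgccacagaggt
HERPUD1 (chr16:56931941-56932060, plus strand, CARE then ERSE-II): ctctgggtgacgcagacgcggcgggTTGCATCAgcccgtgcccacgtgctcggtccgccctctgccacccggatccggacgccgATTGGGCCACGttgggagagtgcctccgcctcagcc
CALR (chr19:12938359-12938427, plus strand, ERSE): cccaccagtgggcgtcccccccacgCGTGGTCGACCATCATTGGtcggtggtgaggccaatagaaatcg
HYOU1 (chr11:119057249-119057415, minus strand, ERSE-II at 2 places): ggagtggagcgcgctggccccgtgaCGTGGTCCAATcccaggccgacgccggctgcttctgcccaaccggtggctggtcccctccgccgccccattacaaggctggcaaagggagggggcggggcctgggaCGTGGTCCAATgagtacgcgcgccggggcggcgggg
SDF2L1 (chr22:21642089-21642149, plus strand, ERSE-II): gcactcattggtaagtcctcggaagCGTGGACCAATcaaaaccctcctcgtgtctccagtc
HSPA5 (chr9:125241366-125241434, minus strand, ERSE): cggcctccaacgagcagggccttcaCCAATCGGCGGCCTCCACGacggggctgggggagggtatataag
XBP1 (chr22:28800578-28800646, minus strand, ERSE): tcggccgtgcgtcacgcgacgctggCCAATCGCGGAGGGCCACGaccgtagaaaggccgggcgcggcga

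ERSE stood in the windows of 6 of 16 reticulum branch genes (37.5%), CALR, CRELD2, HSP90B1, HSPA5, PDIA6 and XBP1, against 0.0916% of the 27305 genes with a window. ERSE-II stood in HERPUD1, HYOU1 and SDF2L1 (18.8%, against 0.0696%). CARE, a shorter pattern, stood in ASNS, ATF3, CHAC1 and SLC3A2 of the ATF4 branch (20%, against 4.46%) and in HERPUD1. Genes with the same element did not share a size of change: CALR and HSPA5 both hold ERSE and differed by -0.40 and -0.082, and HYOU1 and HERPUD1 both hold ERSE-II and differed by -0.38 and 0.21. Of the 9 reticulum branch genes with ERSE or ERSE-II 8 were below 0 (median -0.091), HERPUD1 being the exception, and of the 7 with a window but neither element 3 were below 0 (median 0.014). Outside the list 27 measured genes held ERSE or ERSE-II, 17 of them above 0 and 10 below, with a median of 0.022.

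Most members had their highest DMSO value in culture 1 (28 of the 37, 75.7%), but the lowest culture was less uniform. Culture 1 was the highest of the 3 DMSO arrays for 15 of the 16 reticulum branch genes (93.8%, against 33.4% of all probe sets), all but DNAJB9, and the highest of the X5050 arrays for 15 (93.8%, against 34.6%), all but HSP90B1. Culture 3 was the lowest DMSO array for 14 of the 16 (87.5%, against 30.6% of all probe sets). With X5050 the lowest array was that of culture 2 for some of them, such as HSPA5, and of culture 3 for others, such as HYOU1. In the ATF4 branch culture 1 was the highest DMSO array for 13 of 21 genes (61.9%) and the highest X5050 array for 15 (71.4%). The lowest DMSO array of that branch was culture 1, 2 and 3 for 5, 7 and 9 genes. For 23 of the 37 members the SD of the 3 DMSO arrays was larger than the size of the mean change with X5050, as it was for 12148 of all 19460 probe sets.

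The largest differences between cultures were in MTHFD2, VLDLR and SLC7A5. With treatment kept in the model, culture 3 was lower than culture 1 by 0.88 for MTHFD2, by 0.97 for VLDLR and by 0.82 for SLC7A5, and in the reticulum branch by 0.60 for DNAJC3, by 0.56 for HYOU1 and by 0.40 for HSPA5. A limma F test between the 3 cultures, chosen after the data were seen, passed for 1 of the 37 members (2.7%, against 2.93% of all probe sets). This was VLDLR (adjusted p = 0.0346), so a difference between cultures was not established for most members. The next were DNAJC3 (0.0742), HYOU1 (0.0770) and MTHFD2 (0.0794), which did not pass.

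Mesenchymal and matrix markers were also highest in culture 1, but cultures 2 and 3 had no fixed order in the median signal. Their median log2 signal was 8.21, 7.005 and 7.001 with DMSO and 7.80, 6.56 and 6.90 with X5050 in cultures 1, 2 and 3. The summed linear signal of the 12 measured markers was 10036, 3548 and 2496 with DMSO and 6421, 2664 and 2399 with X5050 in cultures 1, 2 and 3, so it was highest in culture 1 and lower with X5050 in each culture. Of the 12 genes 10 were below 0 with X5050 (median -0.18), among them LUM (-1.09), a collagen-binding protein. LUM alone of the 12 passed in the paired limma fit (adjusted p = 0.0386), and it did not pass in limma without the block (adjusted p = 0.629). By culture the median change of these markers was -0.37, -0.17 and -0.054, and in culture 3 single markers ran from -0.69 (LUM) to 0.40 (PDGFRB). Of the 16 reticulum branch genes 6 were lower with X5050 in all 3 cultures (37.5%, against 17.5% of all probe sets). These were CALR, HYOU1, SDF2L1, PDIA4, CRELD2 and XBP1. EDEM1 and HERPUD1 were higher in all 3 (12.5%, against 18%), and the other 8 were mixed. Among neuron markers SNAP25, a synaptic vesicle fusion protein, was higher by 0.66 (adjusted p = 0.0328 in the paired limma fit, but 0.366 in limma without the block). The summed signal of the 9 measured neuron markers was 9120 to 11111 with DMSO and 9643 to 11116 with X5050. Of the 10 neural stem cell markers 7 were below 0 (median -0.14, and -0.084, -0.092 and -0.11 by culture), and NES, the intermediate filament nestin, had the smallest p (-0.42, no overlap between groups, adjusted p = 0.113 in the paired limma fit). Of the 4 neural crest markers 3 were above 0, with TFAP2B, a transcription factor, the smallest in p (0.56, adjusted p = 0.0764 in the paired limma fit). The smallest p of the astrocyte and oligodendrocyte markers was that of S100B (0.20, 6 of 7 above 0), and of the pluripotent cell markers that of DPPA4 (-0.32, 1 of 3 below 0), with adjusted p of 0.435 and 0.264 in the paired limma fit. The part of any of these cell types in the members' values was not tested.

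**Figure D4:**
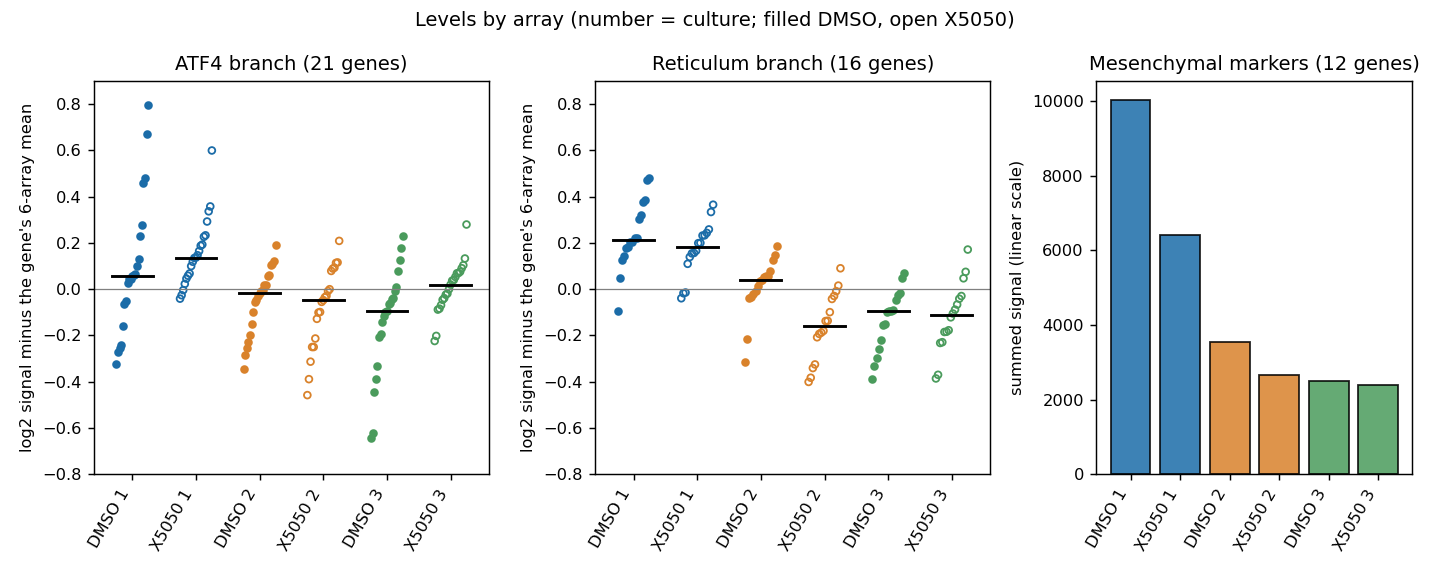
Left and middle, the log2 signal of each member minus its own mean over the 6 arrays, by array (filled DMSO, open X5050), with a bar at the median; right, the summed linear signal of the 12 mesenchymal markers in each array. Both arrays of culture 1 hold the highest reticulum branch values and the highest mesenchymal sums (10036 and 6421).

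Other genes of the pathway, in lists chosen with results of these data known, gave 0 calls in either limma fit. Of 23 other ATF4 targets 10 were above 0 and 13 below (median -0.057), so the small excess of higher genes in the ATF4 branch was not seen in them. SLC7A3, an arginine and lysine importer, had the smallest paired p of these (0.55, paired SE 0.11, adjusted p = 0.0802 in the paired limma fit). The cystine importer SLC7A11 was 1.28 higher in culture 3 and within 0.02 of its DMSO level in cultures 1 and 2. Of the 23 genes 7 were lower in all 3 cultures (30.4%, against 17.5% of all probe sets) and 3 higher (13%, against 18%). The groups did not overlap for 4 (17.4%, against 14.9%), all of them lower with X5050. Among 19 aminoacyl-tRNA synthetases, which load amino acids onto tRNAs and include many ATF4 targets, 12 were below 0 (median -0.078), with VARS1 the smallest in p (-0.29, paired SE 0.095, adjusted p = 0.210 in the paired limma fit).

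Among the 18 measured stress sensors and components of the eIF2 machinery 12 were below 0 (median -0.046). EIF2S3, the subunit of eIF2 that binds guanine nucleotides, had the smallest p (-0.48, paired SE 0.092, adjusted p = 0.0709 in the paired limma fit). The other subunits EIF2S1 and EIF2S2 were also lower in each culture, with means of -0.26 and -0.24 (adjusted p = 0.229 and 0.277 in the paired limma fit). Of the 18 genes 5 were lower in all 3 cultures (27.8%, against 17.5% of all probe sets). EIF2AK3, which encodes PERK, was higher in each culture by 0.39, 0.15 and 0.40 (adjusted p = 0.182 in the paired limma fit). Its X5050 arrays were all above its DMSO arrays, and it was 1 of 4 genes of the 18 without overlap (22.2%, against 14.9% of all probe sets). The sensors ATF6 and ERN1 (IRE1) differed by -0.015 and -0.029.

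Of 27 other folding and degradation genes of the reticulum 17 were below 0 (median -0.046). DERL2, a channel component of reticulum-associated degradation, was lower by 0.22, 0.78 and 0.40 (adjusted p = 0.125 in the paired limma fit), in contrast to EDEM1 and HERPUD1. Of the other degradation genes DERL1, SYVN1 and SELENOS were lower in all 3 cultures (means of -0.13, -0.10 and -0.12) and OS9 differed by -0.067. DERL3, EDEM2 and EDEM3 had means above 0 (0.16, 0.11 and 0.093). The oxidases ERO1A and ERO1B, which recharge the disulfide isomerases, were higher in all 3 cultures, with means of 0.26 and 0.43 (adjusted p = 0.275 and 0.128 in the paired limma fit). Both were among the 5 of 27 genes without overlap between groups (18.5%, against 14.9% of all probe sets), and ERO1B (5.04 with DMSO) lay below every array median. CANX, the membrane partner of calreticulin, differed by -0.046. Among 5 genes of cell death linked to CHOP, BCL2L11 (BIM) had the smallest p (0.27, paired SE 0.12, adjusted p = 0.328 in the paired limma fit), and TNFRSF10B and BBC3 differed by 0.061 and -0.018. The 10 measured cytosolic and mitochondrial heat shock genes stood on both sides of 0 (5 above and 5 below, median -0.0010), with HSPE1, the mitochondrial co-chaperonin, the smallest in p (-0.49, paired SE 0.11, adjusted p = 0.102 in the paired limma fit).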

How the data were processed

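Each of the 6 samples, prepared from 100 ng of RNA, was measured on its own Affymetrix whole-transcript array. The authors deposited 1 log2 signal for each probe set. RMA and Partek are the tools listed in the submitters' processing notes, without versions; RMA compresses differences of dim probe sets. Of 33297 probe sets, 19460 carry 1 gene symbol in the platform annotation and were tested, 1754 carry several and were not named, and 12083 are unnamed here. All 38 symbols are in the RefSeq table of GRCh38.p14.

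Groups and replicate numbers come from the titles. The test was limma 3.58.1 (R 4.3.3, lmFit and eBayes, two-sided, treatment the only term, Benjamini-Hochberg over 19460 probe sets, threshold 0.05). Deviations from group means correlated at 0.365, 0.298 and 0.255 for arrays of the same number and at -0.236 to -0.052 for others, so the numbers were taken to pair samples by culture, and the fit with that block is an alternative. Other alternatives were normalization, centring, a filter on dim probe sets, the median probe set of a gene, and left-out arrays or cultures. The fits were tested on simulated data with known changes, all larger than the change of any member. That test therefore does not show whether changes of the size seen here would be called. Members and lists were chosen with earlier results of these data known. By rule, array values are given for the 5 members of each branch with the largest mean change, and from each other list the gene with the smallest paired p is named; further genes were named, and the test between cultures and the promoter search added, after the data were seen. Plots used matplotlib 3.10.9.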

Additional observations from a re-analysis of the deposited data

How the results depend on the processing

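No member passed an adjusted p under 0.05 in limma under any setting, the replicate block included, which left the branch medians at 0.061 and -0.081 because paired and unpaired means are the same; over all probe sets it moved the count of calls from 0 to 97, and without culture 1, 2 or 3 to 346, 81 and 0. Without the array of DMSO in culture 1 the unblocked fit called 1 probe set. The smallest adjusted p of a member with an array or culture left out was 0.0549, for CTH. The filter on dim probe sets left 34 members. Normalizing by quantiles again gave a difference of branch medians of 0.077 and an ATF4 change of 0.0024. Centring arrays on their medians gave -0.013 for PHGDH and -0.0046 for DNAJB11. The cause of these differences was not tested.

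With each array left out in turn the ATF4 branch median ranged from -0.0056 to 0.099, the reticulum branch median from -0.19 (without X5050 in culture 1) to 0.0076 (without DMSO in culture 1), and their difference from 0.085 to 0.19, with 0.17 in the paired fit without culture 1. Of the 37 members 18 kept their sign with each array left out and 24 with each culture left out. The ranges of the others with each array left out were -0.095 to 0.31 for ATF3, -0.049 to 0.21 for TRIB3, -0.031 to 0.093 for CHAC1, -0.087 to 0.15 for SESN2, -0.12 to 0.14 for DDIT4, -0.12 to 0.023 for PSAT1, -0.11 to 0.070 for PHGDH, -0.0072 to 0.13 for SHMT2, -0.18 to 0.48 for MTHFD2, -0.62 to 0.0035 for SLC7A5, -0.037 to 0.13 for SLC3A2, -0.21 to 0.35 for VLDLR, -0.22 to 0.0073 for HSPA5, -0.13 to 0.033 for HSP90B1, -0.044 to 0.16 for DNAJB9, -0.11 to 0.11 for DNAJB11, -0.26 to 0.13 for DNAJC3, -0.21 to 0.078 for PDIA6 and -0.15 to 0.053 for MANF. The replicate block without culture 1 turned the sign of SESN2 (-0.052), DDIT4 (-0.16), PHGDH (-0.092), SHMT2 (-0.017), HSP90B1 (0.030) and DNAJB9 (-0.080). The replicate block without culture 2 turned the sign of ATF3 (-0.015), TRIB3 (-0.070) and PDIA6 (0.083). The replicate block without culture 3 turned the sign of ATF3 (-0.049), CHAC1 (-0.045), SESN2 (-0.023), MTHFD2 (-0.11), VLDLR (-0.075) and DNAJB11 (-0.054).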
